A study of Mus musculus with 30 samples.

Results

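Transcripts that mark B cells, plasma cells and the MHC class II antigen presentation pathway were followed through libraries made from sorted mouse CD4 T cells. The set holds 35 genes listed by symbol: 16 B cell genes, 10 immunoglobulin and plasma cell genes and 9 MHC class II genes. They were taken from 55573 rows in the QuantSeq tables and from 34030 named genes in the RNA-seq tables. All 35 had a row in QuantSeq. In RNA-seq 32 had a named transcript, and Igha, Iglc1 and Ighd had none. The listing used no measured value, but it was made with earlier results of these data known.

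B cells carry an antigen receptor made of a surface immunoglobulin and the signalling chains Cd79a and Cd79b, and plasma cells secrete immunoglobulin in bulk. B cells, dendritic cells and macrophages display peptides on MHC class II molecules, whose genes share the transactivator Ciita, and mouse T cells make little of this protein. In the spleen follicle, TFH cells stay in tight contact with B cells, which they help through IL-21 and IL-4, whereas TH2 cells act mostly outside follicles.

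The 30 libraries came from spleen CD4 T cells of C57BL/6 mice aged 8 weeks. In QuantSeq, an assay that reads the 3' ends of transcripts, all 22 libraries came from mice with the OTII transgene, a T cell receptor specific for ovalbumin. TH2 cells (n = 4) were CD4+hCD2+ cells of IL-4BacTg x OTII Tg mice, hCD2 being human CD2. TFH cells came from OTII Tg mice and TFH2 cells, the name in the labels, from IL-4BacTg x OTII Tg mice. Both were CD4+CD45.2+PD1+ and were split by CXCR5, the follicle-homing receptor, into CXCR5hi (TFH n = 3, TFH2 n = 2), CXCR5int (2 and 2) and CXCR5lo (3 and 2) gates. TFH and TFH2 thus differ in the transgene of the mouse and not in the sort gate. TFH and TH2 differ in both, and TFH2 and TH2 in the sort gate. Knockout libraries were Bcl6KO (Bcl6f/fCd4cre x OTII Tg, CD4+hCD2+, n = 2), where Cre is driven by Cd4 in T cells, and Il4KO (Il4-/- x OTII Tg, CD4+, n = 2). The Bcl6KO genotype label names no IL-4BacTg, although the sort used hCD2. RNA-seq covered wild-type naive cells (CD4+CD62L+CD44-CD25-, n = 2), TH2 cells of IL-4BacTg mice (CD4+hCD2+, n = 2) and TFH CXCR5hi cells of OTII Tg mice (n = 2). These TFH and TH2 cells also differ in both sort gate and transgene. The label of this TH2 pair names no OTII, unlike that of QuantSeq TH2. Another 2 RNA-seq groups had 1 library each, labelled TH2 and TFH2 CXCR5hi and both from IL-4BacTg x OTII Tg mice. No label names an animal, so P values measure only how far these libraries spread, and that spread may be technical.

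QuantSeq libraries held 1.83 to 4.44 M counts (median 2.95, M being 10 to the power 6), so 1 count was worth 0.225 to 0.545 counts per M counts (CPM). RNA-seq libraries held 36.05 to 107.4 M transcript counts, and there a gene is given by its transcript with the most counts, with 1 count worth 0.028 to 0.08 CPM. QuantSeq replicates differed widely, with a chi-square per degree of freedom of 35.07 to 56.06 over 18 pairs, against 1.777 to 15.33 over the 3 RNA-seq pairs. Of the 770 QuantSeq values of the 35 genes 70.6% were 0, against 80.7% over all genes, and 80.5% of the values above 0 rested on 10 or more counts. A value of 0 beside a replicate with 10 or more counts was therefore common. All 10 T cell genes checked, Cd3e and Cd4 among them, had counts in every library. Cxcr5 was 80.3 to 139 CPM in the 5 CXCR5hi libraries and 0 in all TH2 and knockout libraries. In Bcl6KO, Bcl6 read 6.73 and 26.4 CPM against 0.39 to 13.2 in TH2. Il4 read 0 and 0.98 CPM in Il4KO and was 0 in 3 of 4 TH2 libraries, the other at 13.3. No source used here says whether the 3' ends of Bcl6 and Il4 lie in the deleted parts, so neither value tests the knockouts.

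Both single RNA-seq libraries went against their labels. In the library labelled TH2 of IL-4BacTg x OTII Tg mice, Cxcr5 was 135.4 CPM and Tox2, a TFH transcription factor gene, was 149.3 CPM. In the library labelled TFH2 CXCR5hi these values were 1.11 and 0.398 CPM. The RNA-seq TH2 pair had no Cxcr5 count. Neither single library is a side of any comparison, and both are described last. Both were, however, part of the shared fit, the filter on low counts and the choice of transcript.

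Igkc, the constant region of the kappa light chain, gave the clearest pattern in QuantSeq. It was present in all 14 TFH and TFH2 libraries and close to absent elsewhere. In TH2 it read 0.39, 0.675, 0 and 0 CPM, which is 3 counts in all, and it was 0 in all 4 knockout libraries. TFH cells held 58.1, 22.4 and 42.4 CPM in the CXCR5hi gate, 24.2 and 59.4 in CXCR5int and 35.3, 42.1 and 65.4 in CXCR5lo. TFH2 cells held 300 and 617 CPM in CXCR5hi, 58.2 and 227 in CXCR5int, and 358 and 51.2 in CXCR5lo. Every TFH library was above every TH2 library, and only 1 other library, of TFH2 CXCR5lo, was above the lower of the 2 TFH2 CXCR5hi libraries.

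Against TH2, Igkc was higher in TFH CXCR5hi by 6.97 ± 0.78 (log2 ± SE, edgeR, adjusted p = 5.97e-11). The 407 counts against 3 give a ratio of summed CPM of 142, with an exact 95% counting interval of 48.4 to 693. In TFH2 CXCR5hi it was higher by 10.42 ± 0.85 (adjusted p = 4.55e-17), a ratio of 1620 with an interval of 552 to 7840. Igkc was also higher in TFH2 than in TFH within the CXCR5hi gate, by 3.44 ± 0.67 (adjusted p = 0.0209). This last call was lost without TFH replicate 2 (adjusted p = 0.167), TFH replicate 3 (0.05) or TFH2 replicate 2 (0.363). Averaged over the 3 gates, TFH2 was above TFH by 2.41 ± 0.40 (adjusted p = 8.85e-05), with means of 268.7 ± 211.6 CPM (SD, n = 6) and 43.7 ± 16.2 (n = 8). The TFH2 libraries ran from 51.2 to 617 CPM and overlapped the TFH range. In bulk libraries like these, fewer cells of a type and less RNA per cell cannot be told apart.

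**Figure D1:**
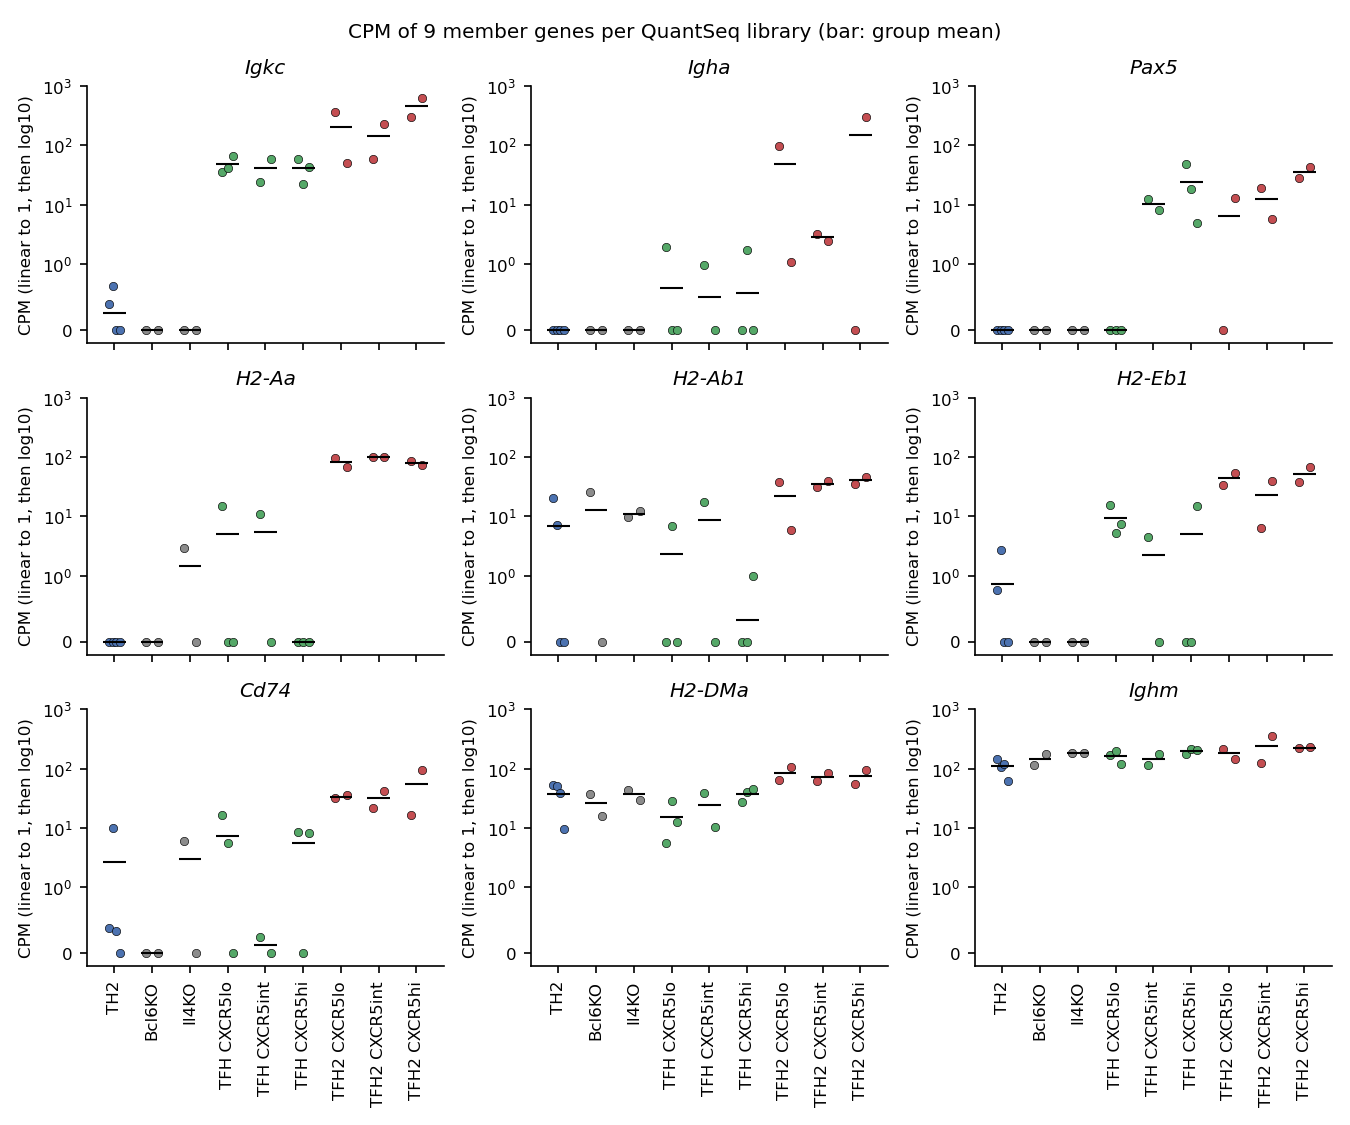
CPM of single QuantSeq libraries for genes named in the text, by group, on an axis that is linear up to 1 and logarithmic (base 10) above; each point is 1 library and each bar a group mean. Igkc separates TFH and TFH2 libraries (22.4 to 617 CPM) from TH2 and knockout libraries (0.675 or less), while H2-Aa separates TFH2 (66.5 to 99.0 CPM) from all the others (15.1 or less).

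Ighm, the constant region of the IgM heavy chain, behaved otherwise. It had counts in all 22 QuantSeq libraries, as only H2-DMa did besides. TH2 libraries read 146, 107, 121 and 60.5 CPM, Bcl6KO 116 and 174, and Il4KO 182 and 182. Values ran from 114 to 213 CPM in TFH (median 173.5, n = 8) and from 124 to 352 in TFH2 (median 219.4, n = 6). Over all gates TFH and TH2 overlapped. The 3 TFH CXCR5hi libraries, at 175, 213 and 204 CPM, lay above TH2, but that difference of 0.85 ± 0.37 did not pass (edgeR adjusted p = 0.262). Igkc was 9.52 to 35.1% of the counts of Igkc and Ighm together in TFH libraries, 26.0 to 73.1% in TFH2 and at most 0.625% in TH2. The constant region is transcribed without a joined variable segment in some T cells, and the tables do not tell such transcripts from a complete heavy chain.

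Apart from Mzb1, the other immunoglobulin and plasma cell genes had counts in 2 to 9 of the 22 QuantSeq libraries, all of them TFH or TFH2, and some rested mostly on 1 or 2 of these. Igha, the IgA heavy chain, read 0 and 295 CPM in TFH2 CXCR5hi, 3.24 and 2.48 in CXCR5int and 97.9 and 1.09 in CXCR5lo. In TFH it reached at most 1.92 CPM, and it was 0 in the 8 TH2 and knockout libraries. It was higher in TFH2 CXCR5hi than in TH2 (at least 123-fold with 3 counts put in each empty library, edgeR adjusted p = 0.00196) and in TFH2 than in TFH over all gates, by 5.46 ± 1.43 (adjusted p = 0.0453). Both calls rest on TFH2 CXCR5hi replicate 2, without which the adjusted p was 1.0 in each. The second call was also lost without TFH2 CXCR5lo replicate 1 (0.314) and at some other settings, 9 of 18 keeping it.

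Jchain, which links IgA and IgM into polymers, was 13.3 and 19.8 CPM in TFH2 CXCR5hi, 0 and 6.53 in CXCR5int and 10.9 and 0 in CXCR5lo. It was 0 in the remaining 16 libraries. The 147 counts in TFH2 against 0 in TFH bound the fold at 9.28 or more, and the difference over the 3 gates did not pass (edgeR adjusted p = 0.211). Ighg1, the IgG1 heavy chain that IL-4 favours in class switching, read 31.1 and 0 CPM in TFH2 CXCR5hi, 10.1 and 2.48 in CXCR5int and 0.352 and 4.91 in CXCR5lo. TFH libraries reached 12.9 CPM, with the 8 TH2 and knockout libraries at 0. The lambda light chain gene Iglc1 was 25.0 CPM in 1 TFH2 CXCR5hi library, 20.3 in 1 of CXCR5int and 6.43 in 1 TFH library, and 0 elsewhere. Iglc2 was 29.7 CPM in the other TFH2 CXCR5hi library and 5.63 in 1 of CXCR5int, and 0 elsewhere. The light chains were thus scattered, with no library of TH2 or a knockout among those with counts. Ighg2b and the IgD gene Ighd each had counts in 3 libraries, up to 19.1 and 11.7 CPM. Ighg1 and Ighg2b, and Iglc1 and Iglc2, belong to families of related genes, and how reads that match more than 1 gene were counted is not stated. The plasma cell gene Mzb1 had no count in any of the 22.

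With Ighm, the 10 immunoglobulin and plasma cell genes summed to 60.5 to 182.3 CPM in TH2 and knockout libraries and 203.3 to 1220 in TFH2. TFH sums began at 145.6 CPM, and those of the TFH CXCR5hi gate at 240.9, so TFH overlapped both. Summed without Ighm, the immunoglobulin and plasma cell genes came to 0 to 0.675 CPM in TH2 and knockout libraries. The sums were 31.6 to 72.6 CPM in TFH and 57.2 to 992.5 in TFH2. By gate TFH2 held 371.1 and 992.5 CPM in CXCR5hi, 82.9 and 264.7 in CXCR5int and 57.2 and 467.3 in CXCR5lo. Most of each sum was Igkc, and the highest library of each pair differed from the lowest by more than the whole range of the 8 TFH libraries.

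**Figure D2:**
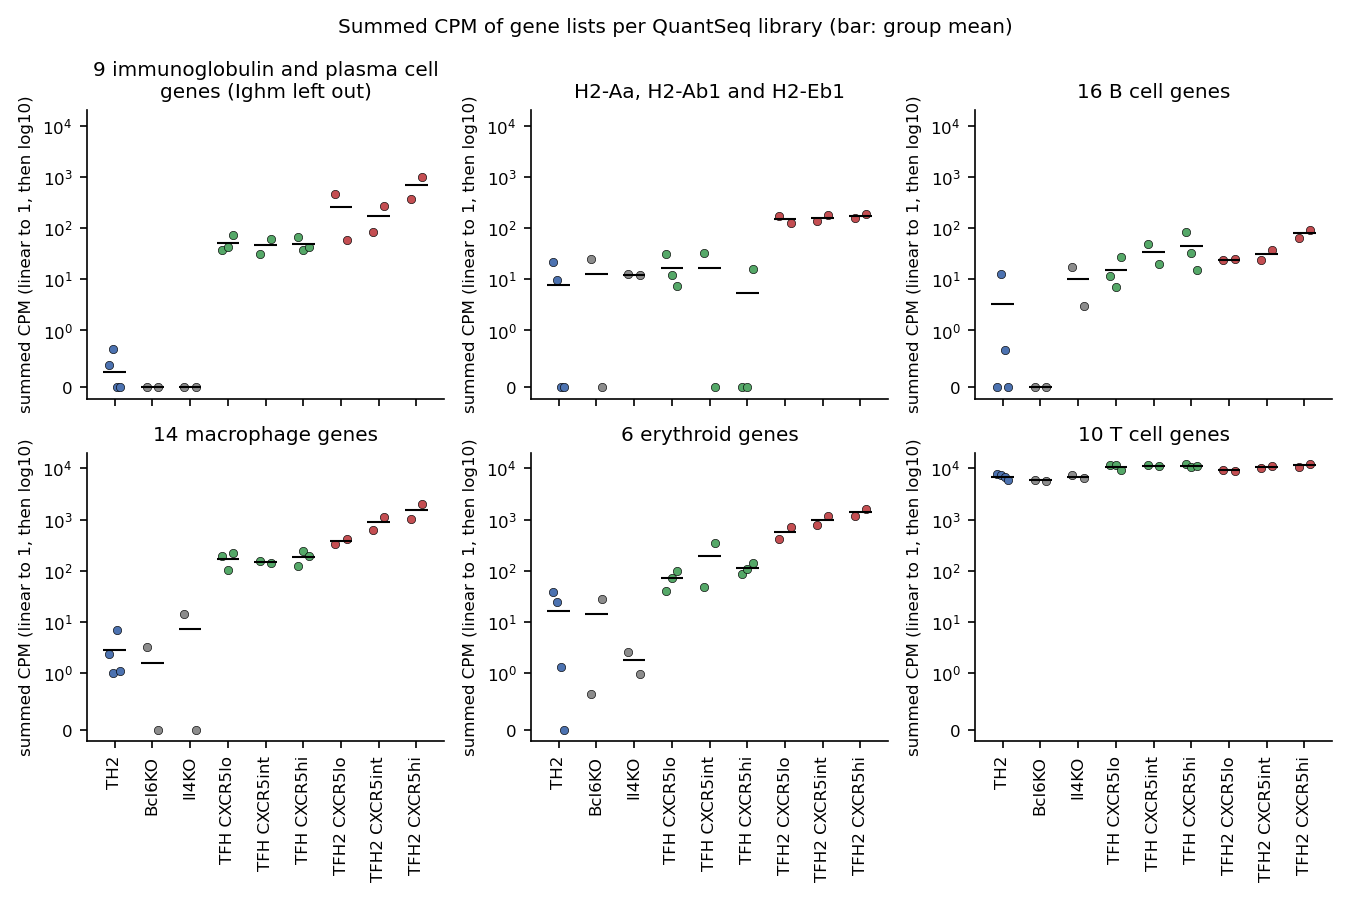
Summed CPM of 3 gene sets and of the macrophage, erythroid and T cell lists in each QuantSeq library, by group; each point is 1 library and each bar a group mean, on an axis that is linear up to 1 and logarithmic (base 10) above. Immunoglobulin genes without Ighm lie at 0 to 0.675 CPM in TH2 and knockout libraries, 31.6 to 72.6 in TFH and 57.2 to 992.5 in TFH2, and the macrophage sum orders the same groups. With Ighm, the TFH sums of immunoglobulin genes overlap those of TFH2 and those of TH2 and knockout libraries.

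MHC class II chains split the libraries differently from Igkc. H2-Aa, the alpha chain of I-A, was 85.2 and 73.3 CPM in TFH2 CXCR5hi, 98.7 and 99.0 in CXCR5int and 96.5 and 66.5 in CXCR5lo. In TFH it was 0 in 6 of 8 libraries, the other 2 at 10.9 and 15.1 CPM, and it was 0 in all 4 TH2 libraries. Among the knockouts it was 2.87 CPM in 1 Il4KO library and 0 in the other 3. The 6 TFH2 libraries therefore lay within 66.5 to 99.0 CPM and above every other library. H2-Aa was higher in TFH2 CXCR5hi than in TH2 (at least 66.1-fold, edgeR adjusted p = 0.000818). Over the 3 gates it was higher in TFH2 than in TFH by 6.32 ± 1.28 (adjusted p = 0.00323), with means of 86.5 ± 14.0 (SD, n = 6) and 3.24 ± 6.11 CPM (n = 8). DESeq2 gave 0.0627 and 0.112 for these 2 calls, and edgeR held them under every other setting tried. Within the CXCR5hi gate alone the difference from TFH was at least 85.3-fold and just missed the threshold (adjusted p = 0.053).

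The partner chain H2-Ab1 was less clear. It read 34.7, 45.8, 31.6, 39.4, 38.4 and 6.00 CPM in TFH2 and had counts in 3 of 8 TFH libraries, at 0.992 to 17.6. It was also found in 5 of the 8 TH2 and knockout libraries, up to 25.3 CPM. The difference between TFH2 and TFH over the gates was 3.92 ± 1.47 and did not pass (edgeR adjusted p = 0.292). H2-Eb1, the beta chain of I-E, which the C57BL/6 strain does not assemble into a surface molecule, ran from 6.47 to 67.4 CPM in TFH2 (median 38.4) and from 0 to 15.6 in TFH (median 4.86), with TH2 at 0.78, 2.7, 0 and 0. Those ranges overlapped, and the difference of 2.90 ± 1.39 did not pass (adjusted p = 0.489). Cd74, the invariant chain that fills the peptide groove during assembly, ran from 16.6 to 95.3 CPM in TFH2 and from 0 to 16.7 in TFH (medians 33.4 and 2.87). TH2 held 0.39, 9.78, 0.332 and 0 CPM. The 2 ranges overlapped slightly, and the difference of 4.26 ± 1.49 was called by DESeq2 (adjusted p = 0.0343) and not by edgeR (0.24). Summed, H2-Aa, H2-Ab1 and H2-Eb1 gave 125.4 to 186.5 CPM in TFH2, 0 to 32.9 in TFH and 0 to 25.3 in TH2 and knockout libraries. The TFH2 sums thus lay above all others, while TFH overlapped TH2 and knockout libraries.

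Values of the peptide-loading genes were mixed. H2-DMa, a subunit of the DM exchange factor, had counts in every library. It ran from 54.9 to 106.3 CPM in TFH2, from 5.48 to 45.4 in TFH and from 9.73 to 51.9 in TH2 and knockout libraries (medians 74.0, 27.9 and 37.6). TFH2 lay above both, yet the difference from TFH, 1.61 ± 0.58, was called by DESeq2 (adjusted p = 0.0191) and not by edgeR (0.262). The H2-DMa gene overlaps 4 other annotated genes, Brd2 among them, and reads from these cannot be told apart where strand use in counting is not stated. H2-Ob, a chain of the DO inhibitor of DM, ran the other way. It was present in all 8 TFH libraries, at 2.39 to 21.3 CPM, and in 1 of 6 TFH2 libraries, at 19.4. TH2 held 36.6, 0, 28.8 and 3.24 CPM. The difference between TFH2 and TFH was -5.55 ± 1.89, called lower by DESeq2 (adjusted p = 0.0163) and not by edgeR (0.211). Its partner H2-Oa stayed at or under 9.78 CPM in every library. H2-DMb1 had counts in 1 library, TFH2 CXCR5hi replicate 2 at 27.5 CPM. Ciita, the transactivator of the whole family, had counts in 3 of 22 libraries and reached at most 7.75 CPM.

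The promoters of this family carry a shared pair of elements, shown here because the chains and loading genes are described as 1 group yet differed between libraries. RefSeq promoters on GRCm38.p6 were found for 19 of the 35 genes. In the 150 bases before the start site, the X-box letters CNNGNAAC followed on the same strand within 40 bases by the Y-box letters TGATTGG were found in 5 of 6 matched MHC class II genes, in none of 13 other matched genes and in 0.204% of 32851 promoters. Alone, the X-box letters were in 21.7% of promoters and the Y-box letters in 5.71%, both strands searched. The letters were chosen after these promoters had been read. The X-box began 84 bases before the start in H2-Aa, 94 in H2-Eb1, 79 in H2-Oa and 90 in H2-Ob, with 23 to 26 bases between the elements. The stretches run 5′ to 3′ on the gene's strand, from 20 bases before the X-box to the end of the Y-box, with the X-box and Y-box letters in capitals. H2-Aa is at chr17:34287867-34287927 on the minus strand, and H2-Eb1 at chr17:34305753-34305812, H2-Oa at chr17:34092280-34092340 and H2-Ob at chr17:34238795-34238852 on the plus strand.
H2-Aa: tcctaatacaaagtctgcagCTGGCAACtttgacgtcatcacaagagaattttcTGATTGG
H2-Eb1: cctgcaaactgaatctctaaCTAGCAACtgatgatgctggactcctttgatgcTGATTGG
H2-Oa: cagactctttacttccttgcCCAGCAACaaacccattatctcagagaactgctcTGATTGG
H2-Ob: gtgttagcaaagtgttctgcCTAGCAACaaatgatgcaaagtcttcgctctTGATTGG
H2-Aa and H2-Ob share these letters. H2-Aa was called higher in TFH2 than in TFH by edgeR and not by DESeq2, and H2-Ob was called lower by DESeq2 and not by edgeR. H2-DMb1 also had both elements and H2-DMa neither. A match of letters is a description and shows no binding.

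B cell genes proper were sparse in QuantSeq. Ms4a1, which encodes CD20, and Blk, Fcrla and Spib had no count in any of the 22 libraries. By counting error alone this allows each up to 0.0452 CPM (3 counts) over the 22. QuantSeq replicates varied by far more than counting error, so higher levels are not excluded. Ebf1, which sets B cell identity together with Pax5, had 7 counts in all. The receptor chain gene Cd79a was 14.3 CPM in 1 TFH library, 10.9 in 1 TFH2 library and 0.332 in 1 TH2 library, and 0 in the other 19. Cd79b was found in 5 libraries and reached 17.6 CPM in TFH2 CXCR5hi. Vpreb3 had counts in 1 library and Cr2 and Fcer2a, receptors for complement and IgE, in 3 each. Cd24a was 25.6 CPM in 1 TFH CXCR5hi library, 28.7 in 1 TFH2 CXCR5hi library and 1.06 in 1 of CXCR5lo. Cd72 was found in 2 libraries, the adaptor gene Bank1 in 3 and the adaptor gene Blnk in 4. None of these passed a QuantSeq test.

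Pax5 and Cd22 were the exceptions. Pax5, the transcription factor that holds the B cell programme, was 48.9, 18.7 and 4.96 CPM in TFH CXCR5hi and 28.7 and 43.6 in TFH2 CXCR5hi. It was 0 in all TH2 and knockout libraries and in all 3 TFH CXCR5lo libraries. Against TH2 it was at least 30.1-fold higher in TFH2 CXCR5hi (edgeR adjusted p = 0.0482) and at least 20.1-fold in TFH CXCR5hi, where it missed the threshold (0.0501). The TFH2 call held in 2 of 10 other settings, with adjusted p up to 0.136. The Pax5 gene overlaps 4 annotated transcripts. Cd22, an inhibitory receptor of B cells, had counts in 7 of 8 TFH libraries (mean 8.82 ± 5.99 CPM), in 4 of 6 TFH2 libraries (6.28 ± 8.49) and in none of the 8 others. Its difference of TFH CXCR5hi from TH2, at least 8.9-fold, did not pass (adjusted p = 0.18). Summed over the 16 B cell genes, TFH libraries held 7.10 to 84.4 CPM, TFH2 libraries 23.6 to 93.8 and TH2 and knockout libraries 0 to 17.5.

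**Figure D3:**
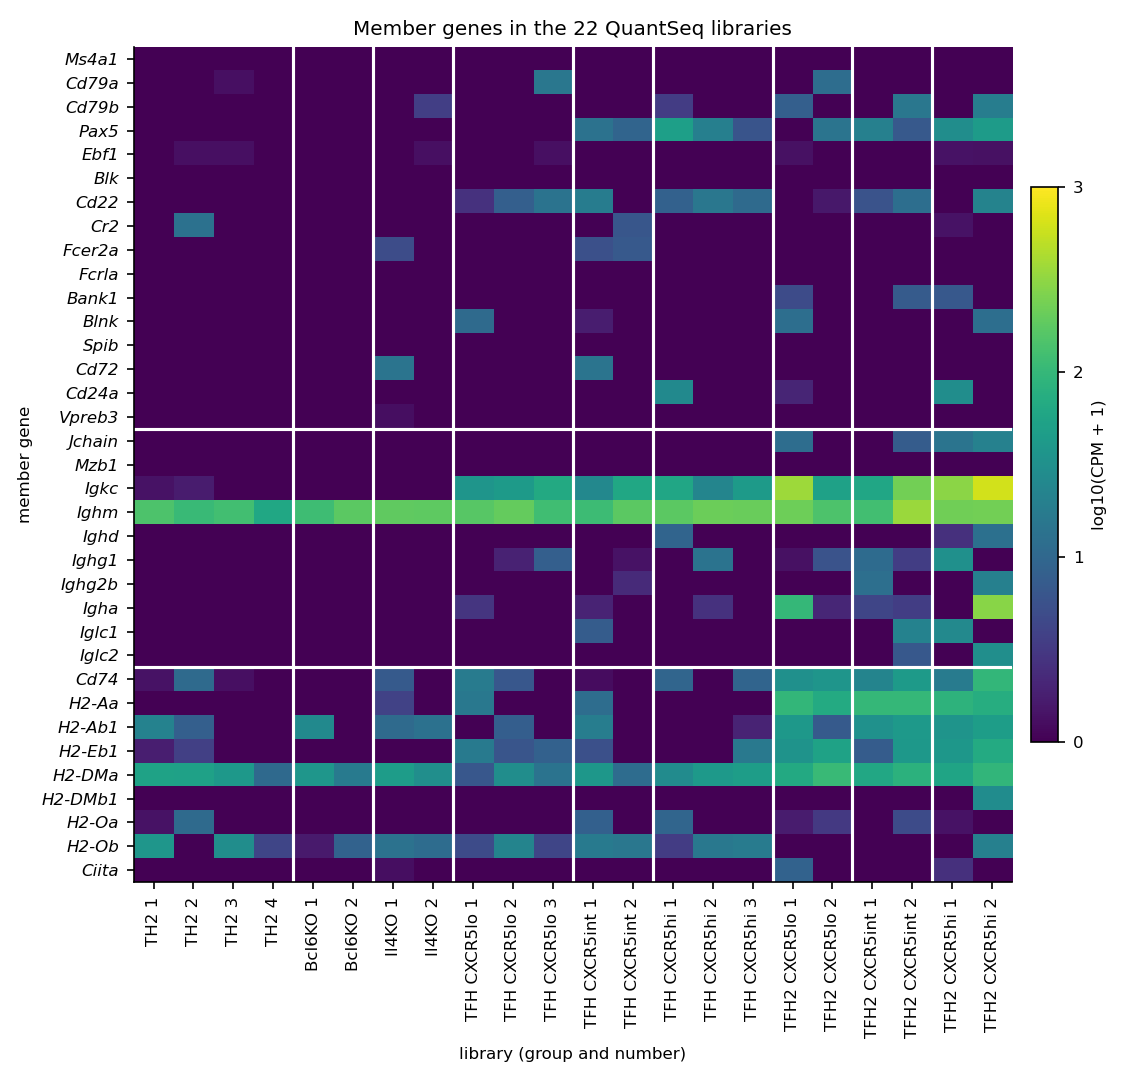
Heat map of log10(CPM + 1) for the 35 genes (rows, by class) in the 22 QuantSeq libraries (columns, by group). Ighm and H2-DMa have counts in every column, Igkc in all TFH and TFH2 columns, and 5 rows have none.

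Of the 35 genes, 26 passed the filter on low counts in QuantSeq and were tested, so the counts that follow do not speak for the other 9. In TFH CXCR5hi against TH2, 1 was higher, Igkc, where 2.05% of all genes tested were called higher. In TFH2 CXCR5hi against TH2, 4 were higher, Igkc, H2-Aa, Igha and Pax5, where 1.7% of all genes were. Between TFH2 and TFH in the CXCR5hi gate 1 was higher, Igkc, and 0.0487% of all genes were. Over all gates 3 were higher, Igkc, H2-Aa and Igha, and 0.327% of all genes were. None was lower by edgeR in any of these 4. By DESeq2 the 3 higher over all gates were Igkc, Cd74 and H2-DMa, with H2-Ob lower, so that the tools shared Igkc. DESeq2 called 1.94% of all genes there, in either direction. Several of the 26, such as Jchain and Iglc2, had counts in TFH2 alone and passed the filter through it, so no median is given over them. Igha, which is among the calls, also passed through TFH2, as its 3 libraries with 10 or more counts were all TFH2. Its part in the 4 and 3 higher calls is therefore no support beyond the shares of all genes. These comparisons share TH2 or TFH libraries and do not stand apart from one another.

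The remaining QuantSeq comparisons called none of the 26 genes with edgeR. TFH2 against TFH in the CXCR5lo gate had 0 calls against 0.132% of all genes, with 6 at an unadjusted p under 0.05 and 0 by DESeq2. In that gate 874 of all 14380 genes were at such an unadjusted p, and DESeq2 called 0.744%. Igkc was there 2.04 ± 0.65 above TFH (edgeR adjusted p = 0.462), and it passed once TFH2 CXCR5lo replicate 2 was left out (0.0465). CXCR5hi against CXCR5lo had 0 calls in TFH (0.139% of all genes, 3 at an unadjusted p under 0.05) and 0 in TFH2 (0.153%, 1 unadjusted). Of all 14380 genes, 870 in TFH and 628 in TFH2 were at such an unadjusted p. DESeq2 called Pax5 higher in the CXCR5hi gate of TFH (adjusted p = 0.0299) and none in TFH2. Of all genes it called 0.577% in TFH and 0.883% in TFH2. Pax5 read 0 in the 3 TFH CXCR5lo libraries, and its edgeR adjusted p was 0.641. The difference between TFH2 and TFH in the step from CXCR5lo to CXCR5hi was called for none (0.0139% of all genes, 1 unadjusted, 0 by DESeq2). For that step 786 of all 14380 genes were at an unadjusted p under 0.05, and DESeq2 called 0.243%.

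The Bcl6KO and Il4KO libraries likewise gave no call against TH2. Bcl6 is the TFH master regulator. These groups differ from TH2 in more than the deleted gene, Il4KO in the sort gate and the transgene and Bcl6KO in the genotype label. For Bcl6KO the count was 0, with 0 at an unadjusted p under 0.05, 0 by DESeq2 and 0.0209% of all genes called. For Il4KO it was 0, with 3 unadjusted (Cd72, H2-Aa and Ighm), 0 by DESeq2 and 0.0695% of all genes called. Of all 14380 genes, 836 in Bcl6KO and 768 in Il4KO were at an unadjusted p under 0.05. DESeq2 called 0.862% and 0.633% of them. No B cell gene of the 16 had a count in Bcl6KO. In Il4KO Cd72 was 13.2 CPM in 1 library and 0 in the other. Of the 26 genes, those called higher in TFH2 CXCR5hi than in TH2 stood in Bcl6KO at 0 (Igkc, H2-Aa, Igha and Pax5). They were also 0 or nearly 0 in TH2, whose sort gate Bcl6KO shares. Their zeros in Bcl6KO therefore follow from how they were picked, and dependence on Bcl6 was not tested.

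Transcripts of some other cell types moved beside these genes. The 14 macrophage genes summed to 0 to 14.35 CPM in TH2 and knockout libraries (0 to 5 genes with counts), 102.3 to 246.3 in TFH (7 to 11 genes) and 334.5 to 2046 in TFH2 (10 to 14 genes). Of these, TFH CXCR5hi had 6 and TFH2 CXCR5hi 8 above TH2, and 3 were higher in TFH2 than in TFH over all gates (C1qa, C1qc and Csf1r). Of all genes tested, 2.05%, 1.7% and 0.327% were called higher in these comparisons. The 6 erythroid genes summed to 0 to 39.4, 40 to 342.5 and 423.6 to 1636 CPM in the same order of groups. Dendritic cell sums, 179.3 to 320.6, 42.4 to 530.6 and 38.2 to 167.6 CPM, did not follow that order. They were mostly Ccr7, which T cells also express, at up to 469.2 CPM, and the widely expressed Cst3, at up to 117.1 CPM. The more specific genes Clec9a, Siglech, Cd209a and Clec10a were 0 throughout. Sums of CD8 and NK genes were 0 to 52.6, 0 to 89.0 and 10.1 to 233.1 CPM in the same order of groups. Neutrophil sums were 0 to 7.08, 0 to 2.74 and 0 to 44.8 CPM. For both lists the ranges overlapped. The T cell sum was 5673 to 7692 CPM in TH2 and knockout libraries, 9205 to 12300 in TFH and 9028 to 12430 in TFH2. The part of these other cell types in the Igkc and H2-Aa differences was not tested.

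B cell genes outside the 35 were compared too. Of 20 further B cell genes, TFH CXCR5hi had 2 above TH2 (Cd83 and Pou2af1) and TFH2 CXCR5hi 3 (these and Irf8), none being called between TFH2 and TFH over all gates. Cd83 and Irf8 are also expressed outside B cells. Of 12 further plasma cell and immunoglobulin genes and 8 further MHC class II genes, none was called in these 3 comparisons. Of all genes tested, 2.05%, 1.7% and 0.327% were called higher in them, and 3.51%, 2.94% and 0.647% in either direction.

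Igkc and H2-Aa were not in 1 ratio across TFH2 libraries. There were 3.52 and 8.43 Igkc counts per H2-Aa count in CXCR5hi, 0.59 and 2.30 in CXCR5int and 3.71 and 0.77 in CXCR5lo. In TFH the ratio could be formed in 2 libraries, at 2.23 and 2.35, because H2-Aa was 0 in the other 6 while Igkc held 66 to 201 counts. Igkc thus had counts where H2-Aa had none in these TFH libraries, and H2-Aa had 10 counts in 1 Il4KO library without an Igkc count. Because a 0 beside a replicate with 10 or more counts was common in QuantSeq, such a 0 does not show that a transcript was absent.

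**Figure D4:**
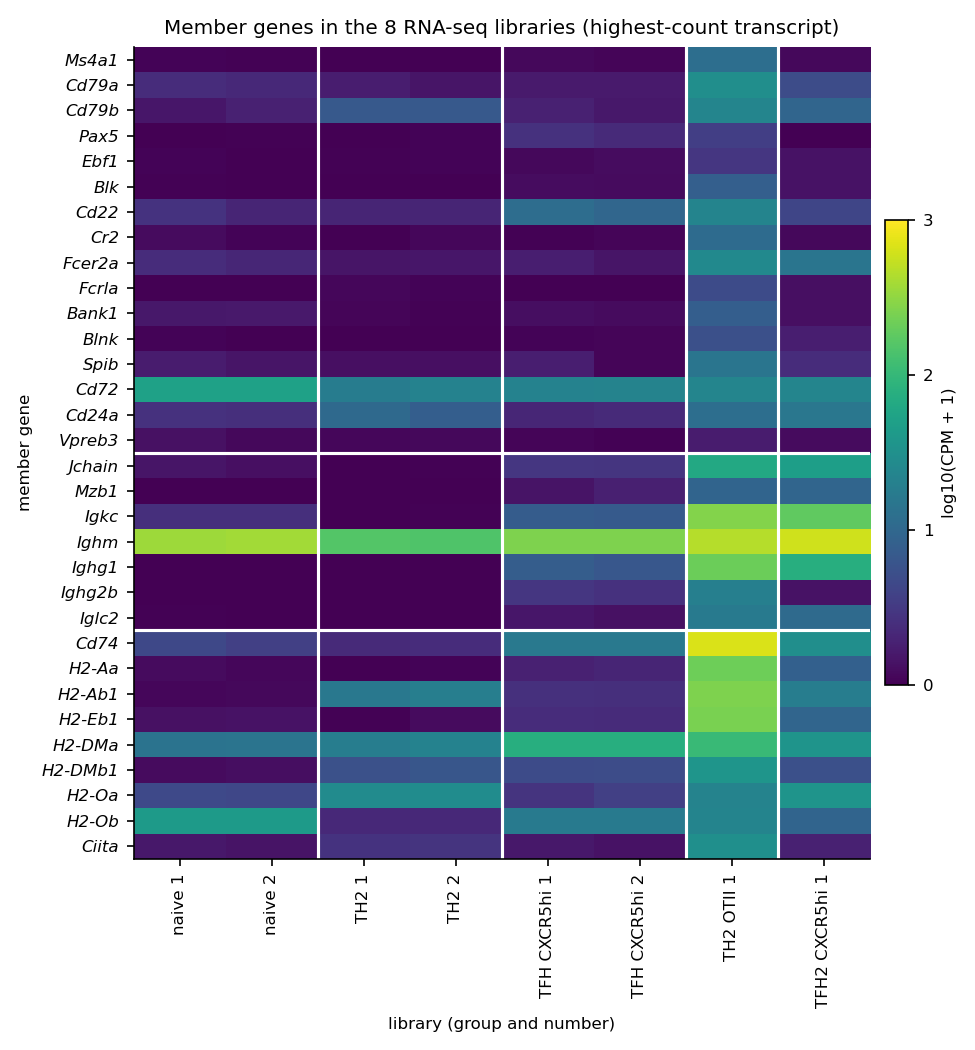
Heat map of log10(CPM + 1) for the 32 genes with a named transcript (rows, by class) in the 8 RNA-seq libraries (columns, by group). The library labelled TH2 of IL-4BacTg x OTII Tg mice is the brightest column, holding the highest value of 26 of the 32 genes.

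RNA-seq was deeper and its pairs differed less than those of QuantSeq, so small differences passed. The TH2 pair was the least alike, with a chi-square per degree of freedom of 15.33, against 1.777 in TFH and 3.185 in naive cells. All 3 comparisons share 1 fit. All 32 genes present were tested. Some, such as Ms4a1, Blk and Fcrla, passed the filter on low counts only through the library labelled TH2 of IL-4BacTg x OTII Tg mice. Ms4a1 and Blk are among the higher calls of TFH CXCR5hi against TH2, and Fcrla is among the lower. TH2 against naive had 8 higher and 11 lower, where 33.9% and 31.9% of all genes were called in those directions. TFH CXCR5hi against naive had 15 higher and 7 lower, against 29.6% and 27.6%. TFH CXCR5hi against TH2 had 17 higher and 6 lower, against 30.8% and 31.0%. As shares of 32, the 8 and 11 of TH2 lie near or below the background, and so do the 7 and 6 lower calls of TFH, while the 15 and 17 higher calls lie above it. The 3 comparisons share libraries in pairs. Some of the 32, such as Ighg1, Ighg2b and Mzb1, had counts in TFH and none in naive cells or TH2. Such genes could be called higher in TFH and not lower. No median is therefore given over the 32, and the shares of calls are a description and no test.

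Except for Ighm, the immunoglobulin genes of the set were again nearly absent from TH2, here of IL-4BacTg mice with no OTII in the label. Igkc read 0 and 0.0401 CPM in TH2, which is 1 count, 1.54 and 1.54 in naive cells and 6.51 and 6.05 in TFH. The 3 groups did not overlap. Igkc was higher in TFH than in naive cells by 2.01 ± 0.14 (edgeR adjusted p = 4.24e-07). TFH exceeded TH2 by a ratio of summed CPM of 299 (exact 95% interval 53.3 to 11900, adjusted p = 4.87e-09), and naive cells exceeded TH2 by 73.1 (12.8 to 2910, adjusted p = 9.81e-07). Jchain followed the same order, at 0 and 0.0401, 0.472 and 0.337, and 1.96 and 1.93 CPM. It was higher in TFH than in naive cells by 2.25 ± 0.24 (adjusted p = 1.13e-05), and lower in TH2 than in naive cells (27 counts against 1, adjusted p = 0.000181).

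The switched heavy chains Ighg1 and Ighg2b had counts in TFH and in neither of the other 2 groups. Ighg1 was 6.58 and 5.47 CPM in TFH and 0 in the other 4 libraries, at least 67.5-fold above naive cells and at least 47.4-fold above TH2 (edgeR adjusted p = 7.23e-08 and 1.08e-07). Ighg2b was 2.00 and 1.67 CPM in TFH and 0 in the same 4, at least 20.5-fold and 14.4-fold higher. Mzb1, a chaperone of immunoglobulin assembly, was 0.436 and 0.834 CPM in TFH and 0 in the 4 others, at least 7.11-fold and 5.0-fold higher. Iglc2 passed against both groups as well, at 0.509 and 0.365 CPM in TFH. Ighm went its own way. It was highest in naive cells, at 363 and 384 CPM, then in TFH at 261 and 263, and lowest in TH2 at 158 and 148. It was lower in TFH than in naive cells by -0.53 ± 0.08 (adjusted p = 0.000132), and lower in TH2 by -1.27 ± 0.08 (adjusted p = 7.97e-08). Per kilobase of transcript, Ighm stood at 175 and 176 CPM in TFH, H2-DMa at 45.8 and 44.9, Igkc at 12.2 and 11.4 and Cd74 at 10.8 and 11.0, so that Ighm had the highest level per length of these 4.

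MHC class II genes did not change as a block. Against naive cells, TFH had 6 of 9 higher and 2 lower, and TH2 had 5 higher and 4 lower. Of all genes, 29.6% were called higher and 27.6% lower in TFH, and 33.9% and 31.9% in TH2. H2-Ab1 was 14.8 and 18.1 CPM in TH2, 1.6 and 1.56 in TFH and 0.126 and 0.168 in naive cells. It was higher in TH2 than in naive cells by 6.76 ± 0.20 (edgeR adjusted p = 1.35e-10) and lower in TFH than in TH2 by -3.41 ± 0.14 (2.26e-09). Its partner H2-Aa read 0 and 0.0802 CPM in those TH2 libraries and 0.909 and 1.04 in TFH. Thus 1 chain of the I-A pair was prominent in TH2 and the other rested on 2 counts. H2-Aa was higher in TFH than in TH2 (45 counts against 2, a ratio of 22.8 with an interval of 5.96 to 194, adjusted p = 2.87e-05). Its lower call in TH2 against naive cells (12 counts against 2, adjusted p = 0.0449) held in 2 of 9 other settings.

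Cd74 and H2-Eb1 sided with H2-Aa. Cd74 was 15.3 and 15.5 CPM in TFH, 1.29 and 1.40 in TH2 and 3.43 and 2.72 in naive cells. It was higher in TFH than in TH2 by 3.47 ± 0.15 (edgeR adjusted p = 3.18e-09) and higher than in naive cells by 2.31 ± 0.12 (2.37e-08). H2-Eb1 was 1.42 and 1.35 CPM in TFH, 0.0447 and 0.240 in TH2 and 0.378 and 0.393 in naive cells, and was higher in TFH than in TH2 by 3.16 ± 0.38 (2.47e-05). Its lower call in TH2 against naive cells (adjusted p = 0.0296) held in 4 of 10 other settings.

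H2-DMb1, H2-Oa and Ciita were higher in TH2 than in naive cells, as H2-Ab1 was. H2-Oa was 26.9 and 27.7 CPM in TH2, 1.85 and 2.66 in TFH and 3.62 and 3.34 in naive cells, higher in TH2 than in naive cells by 2.99 ± 0.14 (edgeR adjusted p = 6.11e-09). H2-Ob, which pairs with it, was 1.21 and 1.24 CPM in TH2, 15.8 and 15.7 in TFH and 41.9 and 41.8 in naive cells. It was lower in TH2 than in naive cells by -5.08 ± 0.12 (4.3e-11). Of the DO partners, H2-Oa was therefore highest and H2-Ob lowest in TH2 in RNA-seq. QuantSeq, whose TH2 cells came from IL-4BacTg x OTII Tg mice, did not show this order. There H2-Ob was 17.2 ± 18.3 CPM in TH2 (SD, n = 4) and 11.3 ± 7.77 in TFH CXCR5hi (n = 3). H2-Oa was 2.54 ± 4.83 and 2.85 ± 4.93 in the same groups. Kit and mouse cannot be told apart here. In RNA-seq H2-DMb1 was 4.60 and 5.37 CPM in TH2 and 3.82 and 4.01 in TFH, against 0.220 and 0.309 in naive cells. Ciita was 1.79 and 1.80 CPM in TH2, 0.582 and 0.417 in TFH and 0.567 and 0.421 in naive cells, higher in TH2 than in naive cells by 1.87 ± 0.26 (5.92e-05). H2-DMa was 75.9 and 74.4 CPM in TFH, 17.7 and 20.2 in TH2 and 13.0 and 13.4 in naive cells, higher in TFH than in TH2 by 1.95 ± 0.08 (2.28e-09).

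**Figure D5:**
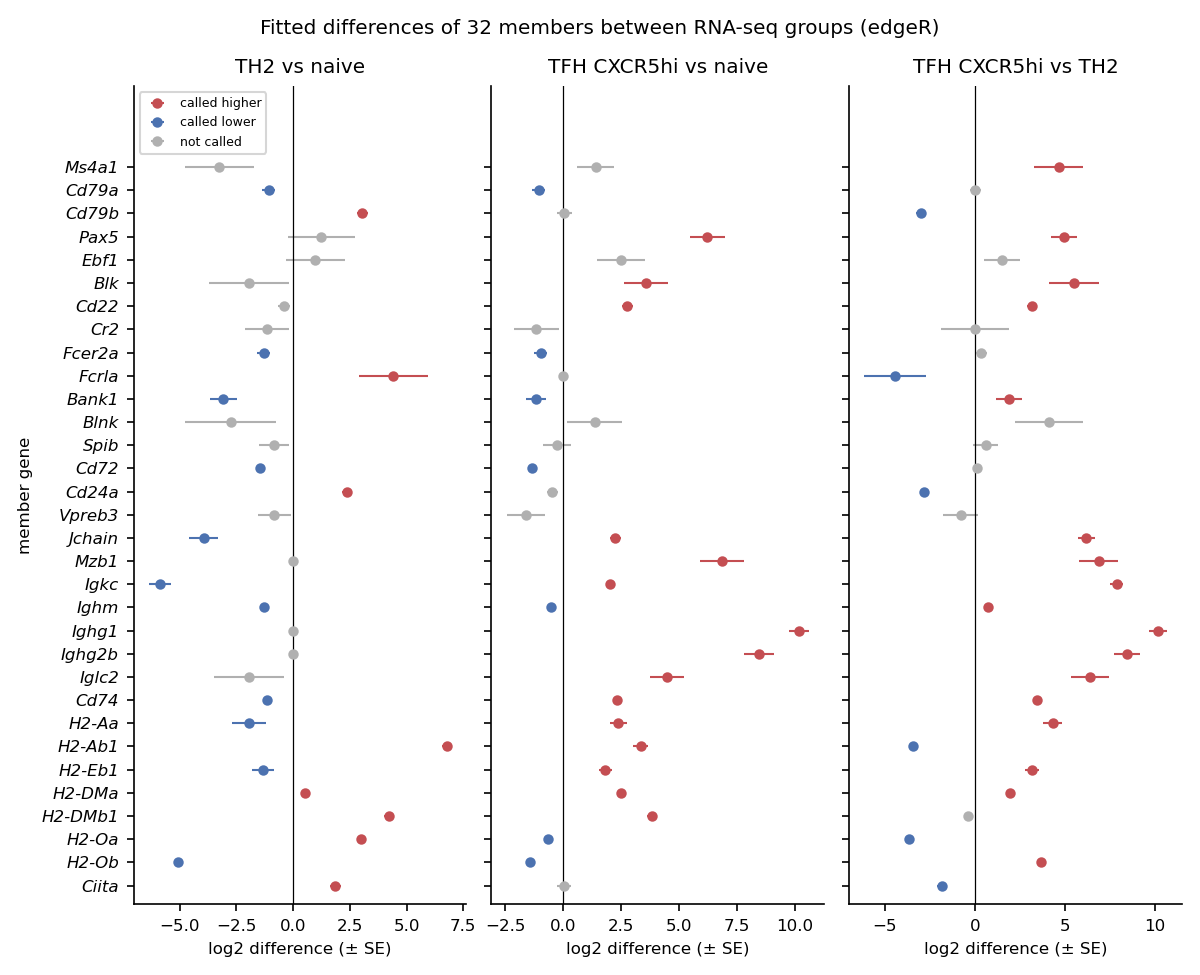
Log2 differences with standard errors from edgeR for genes in the 3 RNA-seq comparisons, with genes by class on one axis and the log2 difference on the other; points mark the fit (red called higher, blue called lower, grey not called) and bars 1 SE. H2-Ab1 (6.76) and H2-Ob (-5.08) lie on opposite sides for TH2 against naive cells, and fitted values of genes with an empty group are no bounds.

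B cell genes were mixed in RNA-seq, with 3 higher and 4 lower of 16 in both TH2 and TFH against naive cells, and 5 higher and 3 lower in TFH against TH2. As shares of 16 these lie at or below the shares of all genes called, 29.6 to 33.9% higher and 27.6 to 31.9% lower, except that the 5 lie close to 30.8%. Cd22 was 10.7 and 8.65 CPM in TFH, 1.07 and 1.04 in TH2 and 1.76 and 1.07 in naive cells. It was higher in TFH than in TH2 by 3.16 ± 0.25 (edgeR adjusted p = 6.81e-07) and than in naive cells by 2.77 ± 0.23 (1.56e-06). Pax5 was 1.67 and 1.30 CPM in TFH and rested on 1 count in naive cells and 2 in TH2. Its ratio over naive cells was 103 (interval 17.8 to 4110, adjusted p = 3.35e-05) and over TH2 36.0 (9.61 to 303, 9.75e-05). Both genes also had counts in all 3 TFH CXCR5hi libraries of QuantSeq, with those of TH2 at 0.

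Other B cell genes went against that direction. Cd79b was 5.85 and 5.85 CPM in TH2 against 0.873 and 0.573 in TFH and 0.535 and 0.870 in naive cells, higher in TH2 than in naive cells by 3.05 ± 0.24 (edgeR adjusted p = 6.33e-07). Its partner Cd79a was lower in TH2 than in naive cells by -1.08 ± 0.27 (0.00446) and lower in TFH by -1.06 ± 0.27 (0.00613). Cd24a, a surface protein also found on other blood cells, was 9.60 and 6.81 CPM in TH2 against 1.09 and 1.30 in TFH. Cd72, an inhibitory coreceptor, was 51.4 and 51.3 CPM in naive cells, 20.3 and 20.9 in TFH and 17.2 and 20.2 in TH2. It was lower than in naive cells by -1.34 ± 0.09 in TFH (1.5e-07) and by -1.45 ± 0.09 in TH2 (5.11e-08). Ms4a1, Blk, Fcrla, Bank1 and Fcer2a calls rested on few counts, and several were lost at other settings.

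Macrophage sums in RNA-seq were 23.2 to 23.6 CPM in naive cells, 26.8 to 27.1 in TH2 and 41.7 to 42.8 in TFH. Of those 14 genes, 9 were higher and 1 lower in TFH than in TH2, and 2 higher and 1 lower than in naive cells. Hmox1 alone was 22.1 and 22.8 CPM in TFH, 7.86 and 8.42 in TH2 and 1.04 and 1.21 in naive cells. Csf1r went the other way against naive cells, at 11.45 and 11.26 CPM in TFH and 14.57 and 13.86 in naive cells. The part of macrophage genes in the results was not tested. Of the 20 further B cell genes, 11 were higher and 1 lower in TFH than in naive cells, and 8 were higher and 7 lower in TFH than in TH2. Of the 8 further MHC class II genes, 5 were higher and 1 lower in TFH than in TH2. Of all genes 29.6% were called higher and 27.6% lower in TFH than in naive cells, and 30.8% and 31.0% in TFH than in TH2. The 8 and 7 of 20 lie near those shares.

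The 2 single RNA-seq libraries held the highest levels of most of these genes. The library labelled TH2 of IL-4BacTg x OTII Tg mice was above the other 7 for 26 of the 32. There Cd74 was 670.2 CPM, H2-Ab1 264.0, H2-Eb1 245.7, H2-Aa 214.6 and Ciita 30.4, all of the MHC class II pathway. Igkc was 274.1 CPM and Ighg1 212.9. B cell genes were present as well, with Cd79a at 29.1 CPM, Cd79b at 22.0, Cd22 at 21.7 and Ms4a1 at 11.0. The MHC class II genes summed to 1610 CPM and the macrophage genes to 303.0. The library labelled TFH2 CXCR5hi differed in kind. It held Igkc at 183.7 CPM, Ighg1 at 74.4 and Jchain at 46.9, but H2-Aa at 7.40, Ms4a1 at 0.159 and Pax5 at 0. There were 24.8 Igkc counts per H2-Aa count in it and 1.28 in the library labelled TH2. With 1 library each there is no test, and because their labels are in doubt no direction is drawn from either.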

How the data were processed

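Expression was measured in 30 libraries of sorted CD4 T cells, 22 with a QuantSeq 3' kit and 8 with a standard RNA-seq kit, per the labels. The authors deposited whole-number counts per gene (QuantSeq) and counts per transcript (RNA-seq). Per the submitters' processing notes, STAR 2.7.0c, Bowtie 0.12.2, featureCounts 1.6.0 and the builds mm9, mm10 and GRCm38.p6 were used. No source used here says which made which file, or whether counting used strand. The members and lists were chosen with earlier results of these data known.

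Identifiers were named with GENCODE M21 on GRCm38. In QuantSeq 93 of 55573 rows had no name (0.0062% of counts). In RNA-seq 82946 of 95883 transcripts were named, and the others, with 14.66% of counts, were left out. Each RNA-seq gene was represented by its transcript with the most counts, since summed transcripts held 2.517 times those counts and may count a read repeatedly. CPM in RNA-seq are relative to 12.56 to 35.64 M such counts.

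The test was edgeR 4.0.16 (R 4.3.3) on the counts as deposited, using TMM factors, filterByExpr (minimum count 10, minimum total 15) and a robust quasi-likelihood fit with a 2-sided test. All groups of a kit shared a fit, with 14380 genes and 13 residual degrees of freedom in QuantSeq and 17013 and 3 in RNA-seq. P values were adjusted by Benjamini-Hochberg over all genes, an adjusted p under 0.05 being a call. In all 13 comparisons were made. DESeq2 1.42.0, RLE factors, no filter, fits on the groups compared, sums over transcripts, TMM-scaled CPM and leaving out each library were alternatives. The test code was checked on simulated data. Where a group had no count, 3 counts were put in each empty library for a bound. Groups of 1 to 4 counts get an exact 95% interval of the count ratio. Bounds and intervals cover counting error only. All 35 genes are described, those with a mean of 10 CPM in some QuantSeq group by library or range. Single genes named from other lists were chosen after their values were seen, apart from T cell identity genes. Sequences are from RefSeq.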

Additional observations from a re-analysis of the deposited data

Results flagged for a closer look

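Cd74 was 9.78 CPM (29 counts) in TH2 replicate 2 of QuantSeq and 0.39, 0.332 and 0 CPM in the other 3 TH2 libraries. Its gap to the next library, as a share of the range of the 4, was above Dixon's 95% critical value, which chance also exceeds in a small share of groups.

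In the RNA-seq library labelled TH2 of IL-4BacTg x OTII Tg mice, no side of any comparison, 26 of the 32 genes were above the other 7 libraries. The fold over that highest value was 69.4 for Ms4a1, 29.0 for H2-Aa and 22.5 for Cd74. For Jchain it was 1.37. H2-Oa, H2-Ob, Mzb1, Ighm, Cd72 and Cd24a were not above the others.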

How the results depend on the processing

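No called difference changed direction. Of the counts of calls under other settings, 127 stayed within 1.5 times the count reported, 8 were higher and 4 lower. In TFH CXCR5hi against TH2, with 1 call in QuantSeq, DESeq2 gave 3 (Igkc, Pax5 and Igha), and leaving out single libraries gave 1 to 2, the 2 without TFH replicate 3. In TFH2 CXCR5hi against TH2, with 4 calls, the fit on the groups compared gave 2, and leaving out single libraries gave 2 to 3, the 2 without TFH2 replicate 2. Between TFH2 and TFH in CXCR5hi, with 1 call, RLE factors, no filter and the fit on the groups compared each gave 2, adding H2-Aa. Leaving out single libraries there gave 0 to 2, the 0 without TFH replicate 2 or 3 and the 2 without TFH2 replicate 1. Between TFH2 and TFH in CXCR5lo, with 0 calls, leaving out single libraries gave 0 to 1, the 1 without TFH2 replicate 2. Between TFH2 and TFH over all gates, with 3 calls, DESeq2 gave 4, of which 1 (Igkc) was shared. Between CXCR5hi and CXCR5lo of TFH, with 0 calls, DESeq2 gave 1. Of all genes, DESeq2 called 6.79% in TFH CXCR5hi against TH2, 1.94% over all gates and 0.577% between these TFH gates. In each case the cause was not tested.

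No paired analysis was possible because the labels carry no animal or replicate number. Fits that leave a group with 1 library assume that it varies like the others. RNA-seq fits without the 2 single libraries were added after the data had been seen. At QuantSeq depth 1 count is 0.225 CPM or more, so lower levels could not be seen.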
